A study of Mus musculus with 4 samples.

Results

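Cst7 is a gene of disease-associated microglia, and the tissue spots of rNLS8 mouse brain that held its transcript are described here against spots of the same sections that held none. A spot is a barcoded circle on a capture array. It collects RNA from the several cells above it, so a Cst7-positive spot is a small piece of tissue and not a single microglial cell. In the 2 rNLS8 sections, spots under tissue with at least 2000 unique molecular identifiers (UMI, a tag on each captured molecule) were taken. Of these, the spots whose share of Slc17a7 UMI was above the median of the section were kept. Slc17a7 encodes the vesicular glutamate transporter of cortical and hippocampal excitatory neurons, and the cut was 0.184% of UMI in rNLS8 replicate 1 and 0.311% in rNLS8 replicate 2. Of the 2778 spots that met these rules, 428 held 1 or more Cst7 UMI and 2350 held none. The rNLS8 sections have 5689 spots under tissue, and all 4 sections of the series have 12994.

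The series holds 2 sections labelled Control and 2 labelled rNLS8, each a 5 µm slice of fixed, paraffin-embedded brain from mice of 11 weeks. In rNLS8 mice, a neurofilament heavy chain promoter drives a tetracycline-controlled activator in neurons. This activator switches on human TDP-43 without a working nuclear import signal once doxycycline is withdrawn. Brains were taken 3 weeks after that withdrawal, and the labels give the withdrawal for the control sections too. Per the labels, replicate 1 is female and replicate 2 is male in each group. Y-linked transcripts stood at 0 and 107 CPM, counts scaled to a common total, in the control sections and at 137 and 139 CPM in the rNLS8 sections, so the section labelled rNLS8 replicate 1 goes against its sex label. Nothing in the labels says that the sections came from separate animals. The p-values below come from the 2 rNLS8 sections only and rest on a spread pooled over genes. They do not measure spread between animals, and each rNLS8 section is also given on its own.

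Microglia are the resident phagocytes of the brain. They survey tissue through receptors such as P2ry12 and Cx3cr1, and on meeting dying cells or debris they turn on a program, driven in part through the receptor Trem2, that raises lysosomal, lipid-handling and antigen-presenting genes. Cst7 encodes cystatin F, an inhibitor of lysosomal cysteine cathepsins that is taken up into the endolysosome. It is scarce in resting microglia and is among the genes most strongly raised in the disease-associated state. Cst7 was used to choose the spots, so its own values are a description and it was left out of every test. Other genes of the same microglia would be captured in the same spots, and fewer microglia and less RNA per cell cannot be told apart in a spot.

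Windows of 250 bases before the transcription start are shown for Cst7, for the complement gene C1qc and for the interferon-response genes Cxcl10 and Bst2, which are described with their values below. They come from RefSeq on GRCm38.p6. Capitals mark GAGGAAGT, a sequence bound by PU.1, the factor that sets macrophage identity, or GAAANNGAAA, the core of the interferon-stimulated response element. Both strands were searched. The windows are Cst7 at chr2:150570165-150570414 on the plus strand, C1qc at chr4:136892915-136893164 on the minus strand, Cxcl10 at chr5:92348890-92349139 on the minus strand and Bst2 at chr8:71537473-71537722 on the minus strand.
Cst7: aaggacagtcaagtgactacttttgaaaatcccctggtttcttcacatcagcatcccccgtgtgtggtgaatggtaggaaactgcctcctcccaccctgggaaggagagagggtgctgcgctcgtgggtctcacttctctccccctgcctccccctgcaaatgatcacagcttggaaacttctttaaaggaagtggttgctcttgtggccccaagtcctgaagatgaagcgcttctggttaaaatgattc
C1qc: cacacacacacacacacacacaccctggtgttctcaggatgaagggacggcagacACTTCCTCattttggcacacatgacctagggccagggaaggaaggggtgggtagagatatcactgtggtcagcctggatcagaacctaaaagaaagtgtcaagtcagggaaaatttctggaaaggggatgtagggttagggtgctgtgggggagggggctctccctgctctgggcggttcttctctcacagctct
Cxcl10: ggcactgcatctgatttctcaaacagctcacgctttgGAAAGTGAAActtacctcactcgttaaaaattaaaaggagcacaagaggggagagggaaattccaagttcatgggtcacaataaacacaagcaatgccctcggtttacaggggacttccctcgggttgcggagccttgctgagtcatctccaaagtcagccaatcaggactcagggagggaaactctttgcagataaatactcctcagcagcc
Bst2: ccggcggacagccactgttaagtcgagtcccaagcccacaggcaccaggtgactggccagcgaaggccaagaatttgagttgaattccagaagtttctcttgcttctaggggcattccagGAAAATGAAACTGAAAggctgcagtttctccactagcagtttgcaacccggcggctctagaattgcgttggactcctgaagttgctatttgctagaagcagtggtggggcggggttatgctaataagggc
C1qc has the PU.1 sequence on the opposite strand, Cxcl10 has 1 interferon element, Bst2 has 2 that overlap, and the Cst7 window holds neither string. The PU.1 sequence occurs in 2.44% and the interferon element in 2.98% of the 32851 promoter windows. Counted by gene, 239 (2.58%) of the 9278 tested genes with a window held the PU.1 sequence and 283 (3.05%) the interferon element. Of the 159 genes that rose in Cst7-positive spots, 117 had a window, and 8 of these (6.84%) held the PU.1 sequence and 14 (12%) the interferon element. Of the 95 genes that fell, 63 had a window, 0 of which held the PU.1 sequence and 5 (7.94%) the interferon element. These are counts of letters and no measure of binding.

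Cst7 was close to absent in control tissue. Chosen by the same rules, 2 of 1232 spots in control replicate 1 (0.162%) and 3 of 1337 in control replicate 2 (0.224%) held a Cst7 UMI. The rNLS8 sections had 170 of 1485 spots (11.4%, exact 95% binomial interval 9.87% to 13.2%) and 258 of 1293 (19.95%, 17.8% to 22.2%). These intervals cover counting error only, and the sections of the groups did not overlap. Most positive spots rested on a single molecule, with 138 spots at 1 UMI, 25 at 2 and 7 at 3 or more in rNLS8 replicate 1, and 183, 44 and 31 in rNLS8 replicate 2. The highest spot held 6 and 10 UMI. A spot with 0 Cst7 UMI can therefore still hold Cst7-expressing cells, which draws the compared sets together.

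Positive spots lay next to each other. In rNLS8 replicate 1, an average of 24.0% of the spots under tissue that touch a positive spot on the hexagonal array were also positive, against 9.80% of the neighbours of a Cst7-zero spot. The values were 40.9% and 15.2% in rNLS8 replicate 2. A positive neighbour was present for 111 of 170 and 214 of 258 positive spots. On the map of the compared spots, spots with several Cst7 UMI line up in a strip in each section.

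**Figure D1:**
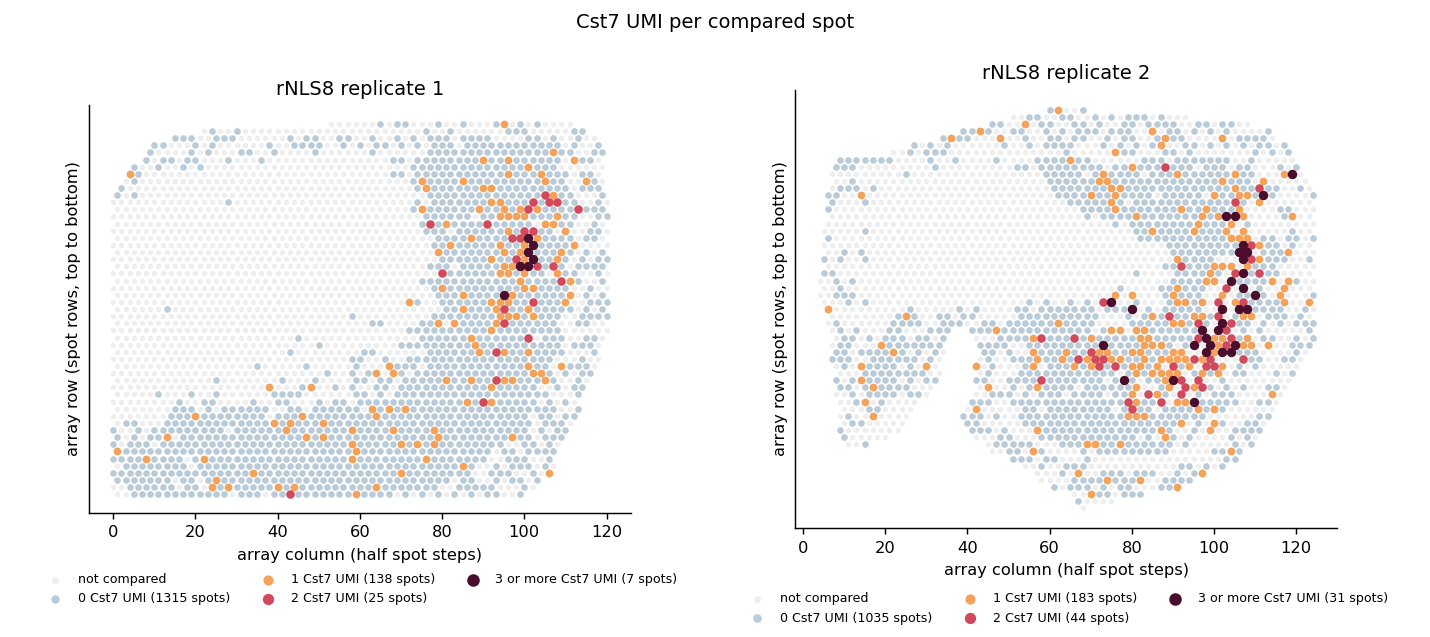
Position on the array (row and column) of every compared spot in rNLS8 replicate 1 (1485 spots) and rNLS8 replicate 2 (1293 spots), with Cst7-zero spots in blue-grey, positive spots coloured by their number of Cst7 UMI and spots under tissue that were not compared in pale grey. The 170 and 258 positive spots are scattered over the compared tissue but are dense in a strip at the right, which in rNLS8 replicate 2 goes on along the lower side, and most spots with 3 or more UMI (7 and 31) lie in it.

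Which tissue held them was read from 7 groups of spots made with region marker genes alone. Spots led by Pvalb and Lhx6, genes of interneurons, were positive in 17.2% and 37.0% of cases. Spots led by Rprm and Ntsr1, markers of deep cortical layers, reached 15.7% and 23.9%, and spots led by Cplx3 and myelin genes, found where the deepest layer meets white matter, 14.6% and 29.1%. Shares were lower in spots led by the upper-layer genes Cux2 and Lamp5 (11.5% and 14.4%), in spots led by the meningeal collagens (5.81% and 11.7%) and in spots led by the striatal genes Drd2 and Rgs9 (6.32% and 9.09%). The last 2 groups were the lowest of the 7 in both sections. Spots led by Npy and Sst were few (53 and 50) and stood at 15.1% and 16%.

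Capture depth differed between the sets in 1 section more than in the other. The median positive spot held 10344.5 UMI against 9956 in Cst7-zero spots of rNLS8 replicate 1, a ratio of 1.04, and 8852.5 against 6529 in rNLS8 replicate 2, a ratio of 1.36. With spots split into 3 equal classes of total UMI, 8.28%, 14.7% and 11.3% of spots were positive in rNLS8 replicate 1, from the lowest to the highest class. In rNLS8 replicate 2 the shares were 8.12%, 22.3% and 29.5%. The positive spots summed to 1742148 and 2188540 UMI, and the Cst7-zero spots to 12280520 and 7125778. Positive spots were therefore also paired with zero spots of like total UMI, or of like UMI and region. Of the 99 called genes followed one by one, which include most genes named below, 59 stayed called and 36 did not when paired by UMI, and 39 stayed called and 57 did not when paired by region markers and UMI.

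Counts were summed over the spots of each set and section, and the sets were compared within sections. Levels are in CPM, here counts per 1e6 counts of the genes tested. Differences are log2 fold changes of positive over Cst7-zero spots, with a standard error (SE) derived from the test, and a gene is said to rise or fall when the edgeR quasi-likelihood test gave a Benjamini-Hochberg adjusted p under 0.05. The 11769 tested genes had a median difference of 0.00032. The test called 254 of them (2.16%), 159 higher (1.35%) and 95 lower (0.807%), and 252 had the same sign in both sections. It has 1 residual degree of freedom per gene and borrows the spread from all genes, which makes very small p-values possible. A gene's own disagreement between the sections had little or no weight. A small p-value therefore does not show that the sections had like differences. DESeq2 on the same sums called 32 genes (0.272% of all 11769). Its default filter gave part of the genes no adjusted p, including the largest rises and falls named below, so these could not be called. With edgeR and no section block, 0 were called (496 had an unadjusted p under 0.05). Pairing spots by total UMI left 142 calls (1.36%), 123 of them among the 254. Pairing by region markers and total UMI left 78 (0.753%), 71 of them among the 254. With every spot thinned to 2000 UMI, which leaves 52 and 98 positive spots, 8 genes were called (0.0812%), all among the 254 and with Ctsb, Ctsd, C1qa, B2m and Cst3 among them, and 222 of the 244 tested kept their sign.

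**Figure D2:**
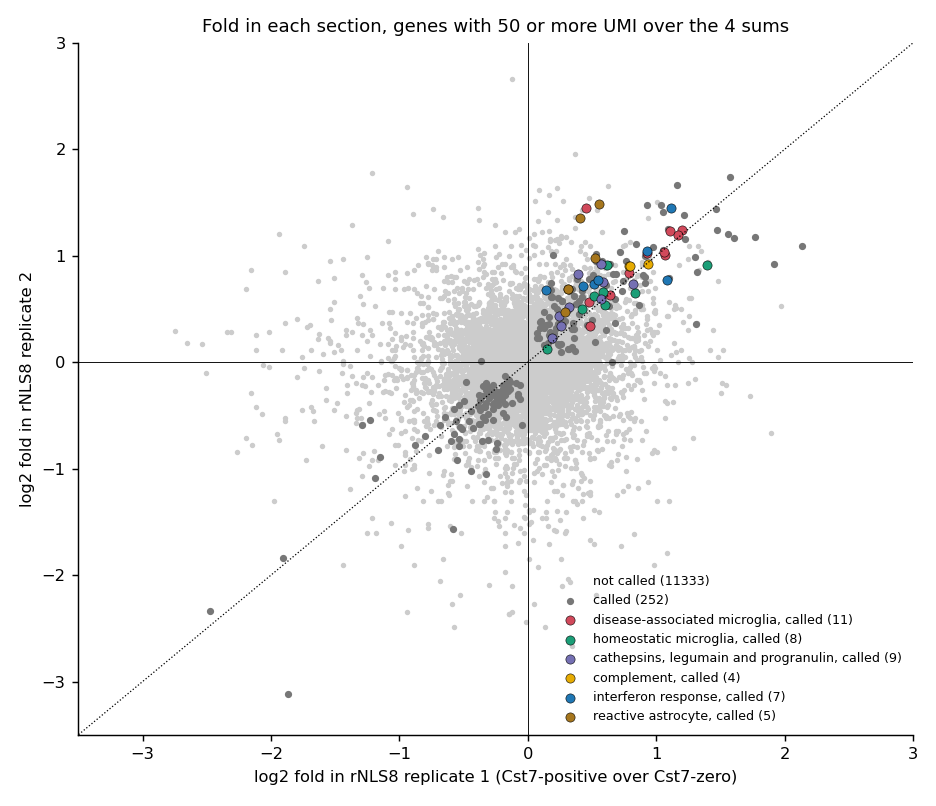
Log2 difference of Cst7-positive over Cst7-zero spots in rNLS8 replicate 1 (x axis) against rNLS8 replicate 2 (y axis) for the 11585 tested genes with at least 50 counts over the 4 sums, 17 of which lie outside the axes. The 252 called genes are dark grey, or coloured where they belong to 1 of 6 gene lists, and sit away from 0 along the diagonal, while the 11333 genes not called crowd around 0.

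Nearly all measured genes of disease-associated microglia had higher values where Cst7 was captured, and not all of them passed the test. Of 23 measured members, 11 rose and none fell, 22 had a positive value, and their median difference was 0.53. Trem2, the lipid-sensing receptor that licenses this state, stood at 61.2 CPM in positive and 26.6 CPM in Cst7-zero spots of rNLS8 replicate 1, and at 77.3 and 32.6 CPM in rNLS8 replicate 2. Its difference was 1.22 (SE 0.12, adjusted p = 2.0e-20), and both positive sums were above both zero sums, which held for 1973 of the genes tested (16.8%). The control sections held 9.54 and 12.6 CPM of Trem2 in the spots chosen by the same rule, below every rNLS8 sum.

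Tyrobp, the signalling adaptor of Trem2, stood at 61.2 and 32.1 CPM in rNLS8 replicate 1 and at 73.6 and 36.0 CPM in rNLS8 replicate 2 (difference 0.98, SE 0.12). Cd68, a glycoprotein of the phagocyte endolysosome, had 54.8 against 26.1 CPM and 69.0 against 34.3 CPM (1.03, SE 0.13). Cd52, a small surface glycoprotein of leukocytes, had 46.2 against 20.5 CPM and 59.3 against 25.9 CPM (1.19, SE 0.14). These values do not overlap between the sets, as for 16.8% of the genes tested, and control sections were at 3.22 and 4.04 CPM of Cd52. Spp1, the secreted protein osteopontin, had 17.9 against 8.28 CPM and 21.6 against 9.18 CPM (1.18, SE 0.22), but on only 31 and 47 UMI in the positive spots. Fcer1g, Ccl6, Itgb2, Lgals3bp, Tspo and Axl also rose, by 0.41 to 1.05. Ccl6 is a chemokine and Itgb2 a leukocyte integrin chain, while Axl is a receptor for dying cells.

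Some defining members of the list gave no call. Apoe, the lipid carrier that astrocytes also make in bulk, stood at 1411 against 1320 CPM in rNLS8 replicate 1 and at 1329 against 1342 CPM in rNLS8 replicate 2 (0.04, SE 0.04, adjusted p = 0.806). Lpl, a lipoprotein lipase, had 25.96 against 23.1 CPM and 21.2 against 18.8 CPM (0.17, SE 0.18, adjusted p = 0.822). Cd9, a tetraspanin that other glia share, had 43.9 against 42.0 CPM and 50.6 against 35.6 CPM (0.29, SE 0.13, adjusted p = 0.318). Clec7a and Lilrb4a have no value here. With spots paired by total UMI, 9 of 21 measured members were called, and with spots paired by UMI and by clusters made without the list genes, where 0.406% of all genes were called, 5 of 21. Leading genes of 1 of these clusters still included Cst7, Cd52, Cxcl10, Trem2, Irf7 and Serpina3n. It held 63 of the 170 positive spots of rNLS8 replicate 1 and 120 of the 258 of rNLS8 replicate 2. Pairing by these list-free clusters is therefore not a pairing by region alone.

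Genes of resting microglia did not fall in these spots. Of 19 measured homeostatic genes, 8 rose, none fell and 18 had a positive value, with a median difference of 0.48. Csf1r, the receptor microglia need to survive, stood at 115 against 76.6 CPM and 133 against 84.2 CPM (0.63, SE 0.08, adjusted p = 5.8e-11), and Aif1, which encodes Iba1, had 57.7 against 32.3 CPM and 70.4 against 44.8 CPM (0.73, SE 0.12). Cx3cr1, the fractalkine receptor, rose by 0.57 (SE 0.14), Siglech by 0.58, Selplg by 0.46 and Fcrls by 1.14.

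The purinergic receptor P2ry12 did not pass. It stood at 18.5 against 19.7 CPM in rNLS8 replicate 1 and at 36.8 against 24.0 CPM in rNLS8 replicate 2, so the sections had opposite signs (0.34, SE 0.17, adjusted p = 0.392). Tmem119 had 24.2 against 18.8 CPM and 29.0 against 22.5 CPM (0.37, SE 0.17, adjusted p = 0.361). Whether their change differs from that of Trem2 was not tested. In both sets limited to spots with a UMI of P2ry12, Tmem119 or Cx3cr1, 75 genes were called (0.709%), 73 of them among the 254.

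**Figure D3:**
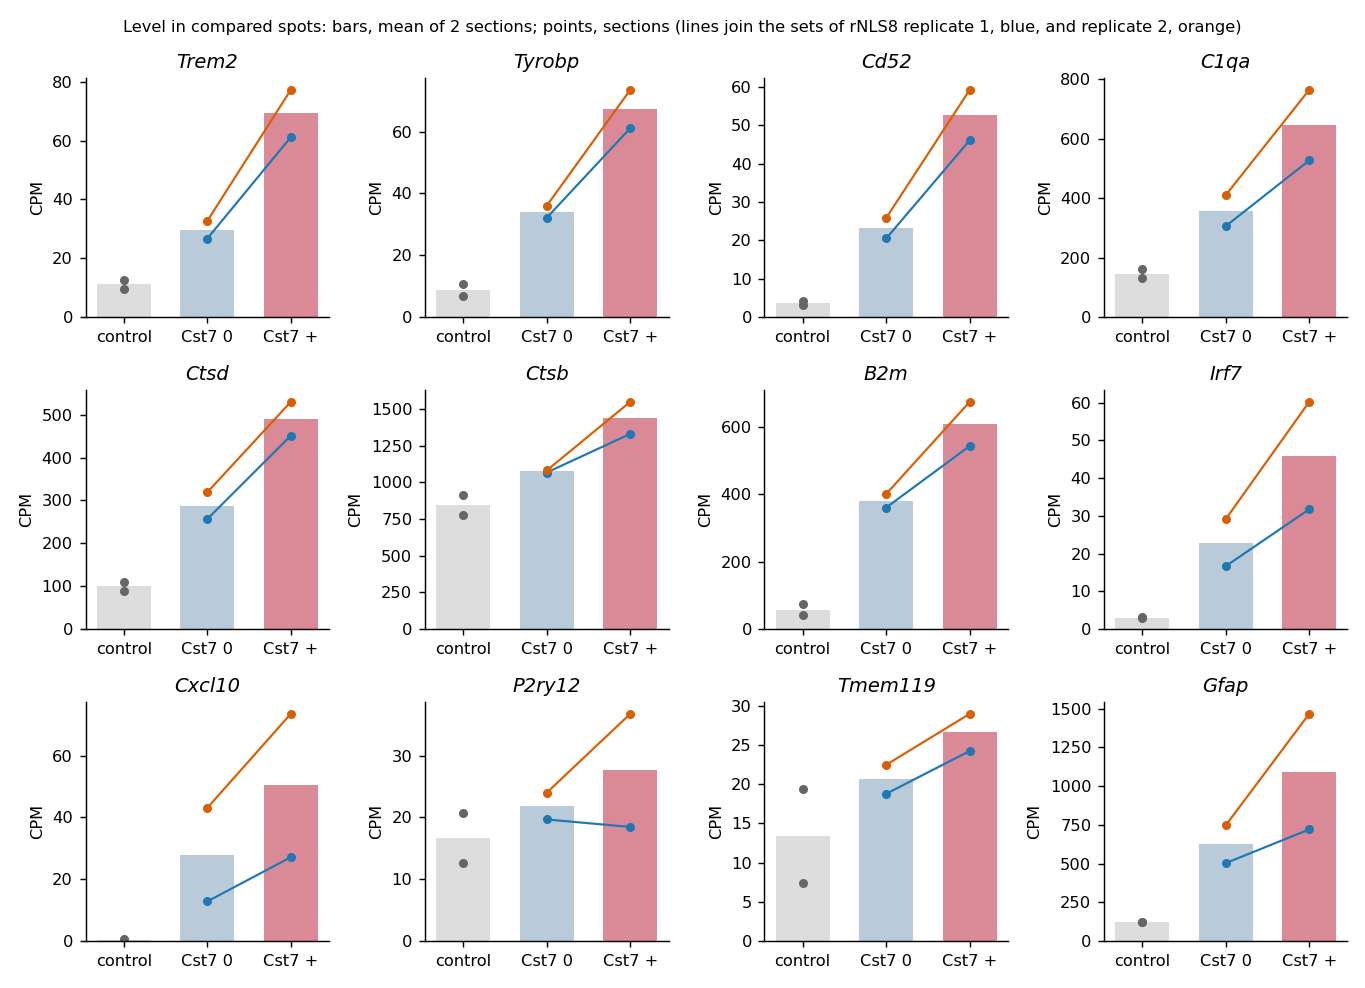
Level in CPM of 12 genes in control spots chosen by the same rules, in Cst7-zero spots (Cst7 0) and in Cst7-positive spots (Cst7 +), with bars at the mean of 2 sections, a point per section and lines joining the sets of rNLS8 replicate 1 (blue) and rNLS8 replicate 2 (orange). Trem2 goes from 26.6 and 32.6 CPM in zero spots to 61.2 and 77.3 CPM in positive spots, while the lines of P2ry12 run in opposite directions.

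Lysosomal proteases rose in part. Of 14 measured genes of cathepsins, legumain and progranulin, 9 rose and none fell, with a median difference of 0.32. Ctsd, an aspartic cathepsin that cystatins do not inhibit, stood at 451 against 256 CPM in rNLS8 replicate 1 and at 530 against 319 CPM in rNLS8 replicate 2 (0.77, SE 0.05, adjusted p = 2.6e-48). Control sections were at 88.8 and 110 CPM of Ctsd, below all 4 rNLS8 sums. Among the cysteine cathepsins, Ctsz had 203 against 137 CPM and 293 against 154 CPM (0.77, SE 0.06), and Ctss, the cathepsin of antigen processing, had 302 against 203 CPM and 348 against 231 CPM (0.58, SE 0.06). Ctsb, which many brain cells express, had 1332 against 1068 CPM and 1551 against 1082 CPM (0.42, SE 0.04). The sets did not overlap for any of these, as for 16.8% of the genes tested.

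Ctsh rose by 0.64, Lgmn, the asparaginyl protease that matures cathepsins, by 0.35, Ctsa by 0.30 and Ctsl by 0.21. Grn, the lysosomal chaperone progranulin, had 202 against 135 CPM and 260 against 154 CPM (0.68, SE 0.06). Ctsc, the target best known for cystatin F, was sparse, at 3.46 against 4.34 CPM and 5.06 against 5.23 CPM (-0.16, SE 0.39, adjusted p = 0.943). Ctsf, Ctsk and Ctso gave no call, with differences of -0.03, 0.20 and 0.19. Cst3, the secreted cystatin C of astrocytes and microglia, had 5004 against 4523 CPM and 4736 against 4336 CPM (0.14, SE 0.04, adjusted p = 0.0072). Other lysosomal genes moved less, with Gusb, Npc2 and Laptm5 higher among 18 measured genes of the lysosome membrane and acidification, and a median of 0.15.

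Complement showed the same direction in both sections. All 3 chains of C1q, the recognition protein that tags synapses and debris, rose. C1qa stood at 527 against 306 CPM in rNLS8 replicate 1 and at 765 against 410 CPM in rNLS8 replicate 2 (0.85, SE 0.05, adjusted p = 1.3e-66), and control sections were at 130 and 162 CPM. C1qb had 157 against 90.6 CPM and 253 against 135 CPM (0.86, SE 0.07), and C1qc had 246 against 129 CPM and 374 against 198 CPM (0.93, SE 0.06). C4b, an opsonin that astrocytes also make and whose reads can be shared with its near-identical copy, rose by 0.53 (SE 0.07). The list had 4 genes higher of 8 measured and a median of 0.55.

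Antigen presentation had 8 of 12 measured genes higher, none lower and a median of 0.57. B2m, the light chain of class I molecules, stood at 544 against 361 CPM in rNLS8 replicate 1 and at 676 against 401 CPM in rNLS8 replicate 2 (0.68, SE 0.05, adjusted p = 5.9e-42). The peptide transporter gene Tap2 rose by 0.47, its partner Tapbp by 0.38 and the immunoproteasome gene Psmb8 by 0.64. Cd74, the class II invariant chain, had 39.8 against 24.8 CPM and 42.8 against 28.4 CPM (0.63, SE 0.14). H2-K1 rose by 1.26 on 19 and 33 UMI, and H2-T23 by 0.52. H2-D1 was called (0.66, SE 0.17) from rNLS8 replicate 1 alone, at 62.9 against 39.8 CPM, since it is listed at 0 throughout rNLS8 replicate 2 and control replicate 2. H2 genes have near-identical relatives, and their counts are uncertain for that reason.

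Some interferon-response genes rose. Of 26 measured members 7 rose and none fell, all had a positive difference and the median was 0.61. Bst2, an antiviral tether, stood at 101 against 70.5 CPM and 141 against 84.9 CPM (0.64, SE 0.09), and Irf7, the factor that amplifies type I interferon, at 31.7 against 16.6 CPM and 60.2 against 29.1 CPM (1.01, SE 0.14). Cxcl10, the chemokine of interferon responses, had 27.1 against 12.8 CPM in rNLS8 replicate 1 and 73.6 against 43.1 CPM in rNLS8 replicate 2 (0.85, SE 0.14, adjusted p = 8.1e-08). The zero spots of rNLS8 replicate 2 thus held more Cxcl10 than the positive spots of rNLS8 replicate 1. Oasl2, Rtp4, Oas1a and Gbp3 rose by 0.48 to 1.33. With spots paired by list-free cluster and UMI, Cxcl10 was at 0.20 (adjusted p = 0.891) and Irf7 at 0.66 (adjusted p = 0.081). Both genes are among the leading genes of 1 of these clusters, whose spots were paired with each other, so that pairing is not by region alone. By that pairing 1 of 23 interferon genes was called, and 5 of 14 cathepsin-list and 3 of 8 complement genes.

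Chemokines beyond Cxcl10 were low in count. Ccl12, a monocyte-attracting chemokine, had 9.81 against 2.54 CPM and 16.1 against 8.47 CPM (1.25, SE 0.28), but it was not called with spots paired by UMI (adjusted p = 0.099). Cxcl16 had 11.5 against 5.57 CPM and 17.0 against 6.07 CPM (1.29, SE 0.26). Tgfb1, the cytokine that maintains microglial identity, rose by 0.47. Of 13 measured phagocytic and Fc receptor genes, Fcgr2b, Fcgr3, Fcer1g and Irf8 rose, with Irf8, a lineage factor of microglia, at 24.2 against 10.3 CPM and 21.2 against 9.46 CPM (1.196, SE 0.21). None of 7 measured cell cycle genes was called, where 2.16% of all genes tested were, so the count says little about this list. Mki67 was at 3.46 against 3.61 CPM and 4.60 against 4.94 CPM. Cdca3, a cell division gene outside the list, rose on 12 and 25 UMI in positive spots (6.92 against 2.21 CPM and 11.5 against 5.085 CPM).

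Markers of other immune cells that can express Cst7 were sparse. None of 3 measured T and natural killer cell genes, 4 border macrophage genes or 1 gene of the B cell, neutrophil and monocyte list was called. With 2.16% of all genes tested called, these counts say little about the lists. Summed over the list, T and natural killer cell genes stood at 48.2 and 57.6 CPM in positive spots and at 37.0 and 53.2 CPM in zero spots, mostly from Trbc2. The killer-cell genes Nkg7, Gzmb and Klrd1 and the T cell genes Cd3g and Cd8a had 0 UMI in all compared spots of the rNLS8 sections, where a count of 0 allows up to 3 UMI per section. The border macrophage sum was 24.7 and 28.8 CPM in positive and 28.4 and 29.3 CPM in zero spots. The list of B cells, neutrophils and monocytes summed to 2.29 and 5.94 CPM in positive and 1.30 and 4.07 CPM in zero spots.

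Some genes of reactive astrocytes rose, although a spot does not show which cell a transcript came from. Of 17 measured genes, Gfap, Vim, Serpina3n, Socs3 and C4b rose and none fell, with a median of 0.23. Gfap, the astrocyte filament, stood at 720 against 502 CPM in rNLS8 replicate 1 and at 1467 against 746 CPM in rNLS8 replicate 2 (0.77, SE 0.04, adjusted p = 3.2e-68). Serpina3n, a secreted protease inhibitor, had 21.4 against 14.5 CPM and 55.6 against 19.8 CPM (1.15, SE 0.16), and with spots paired by list-free cluster and UMI 0.58 (adjusted p = 0.324). In both genes the rise was larger in rNLS8 replicate 2, a difference that was not tested. General astrocyte markers gave 0 calls of 13, where 2.16% of all genes tested were called, and a median of 0.08. Their summed level was 5949 and 6092 CPM in positive against 5509 and 5996 CPM in zero spots.

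Most lists of neuronal genes held few calls or none, as did the genes tested as a whole (2.16%). None of 16 excitatory neuron genes, 15 deep-layer genes, 16 activity-regulated genes or 20 genes of dendrites and the postsynapse was called. The last list, which covers the structure named in the title of the study, had a median of -0.08 and 3 positive members, with Map2, the dendritic microtubule protein, at 913 against 947 CPM and 931 against 1014 CPM (-0.09, SE 0.04, adjusted p = 0.368). Its summed level was 7655 and 7254 CPM in positive and 7859 and 7728 CPM in zero spots, and 9170 and 9169 CPM in control sections. Of 19 presynaptic genes, Cplx1 rose by 0.14 and Stx1a fell by 0.36 on the log2 scale.

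The axonal genes went both ways. Nefh, the heavy neurofilament chain, had 173 against 139 CPM and 174 against 124 CPM (0.40, SE 0.07), and Nefm rose by 0.31. Gap43, the growth-cone protein, had 612 against 740 CPM and 642 against 843 CPM (-0.34, SE 0.05, adjusted p = 6.0e-11), and Tuba1a and Tubb2a also fell. Pvalb, the calcium buffer of fast-spiking interneurons, had 302 against 229 CPM and 189 against 127 CPM (0.47, SE 0.06), yet with spots paired by region markers and UMI it had an adjusted p of 0.736. With the same pairing Gap43 was still called (adjusted p = 4.8e-06), and Nefh was not (0.427). The stress genes Atf3, Ddit3, Chac1 and Tnfrsf12a rose among 19 injury genes. Atf3, an injury-induced transcription factor, had 10.4 against 4.43 CPM and 21.2 against 8.05 CPM (1.33, SE 0.25), and Ddit3, which encodes CHOP, rose by 0.28. Neither was called with spots paired by region markers and UMI (1.04 and 0.26, adjusted p = 0.091 and 0.069), and by list-free cluster and UMI Atf3 was at 0.80 (adjusted p = 0.453).

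Several genes known from the striatum, the meninges or upper layers fell, and these were chosen for mention from the called genes. Ppp1r1b, the striatal phosphoprotein DARPP-32, had 1168 against 1487 CPM and 511 against 730 CPM (-0.42, SE 0.04, adjusted p = 3.2e-19), and Rgs9, Penk and Adora2a, all striatal, fell by 0.56, 0.61 and 0.56 on the log2 scale. Ppp1r1b was still called when spots were paired by region markers and UMI (-0.29, adjusted p = 6.3e-07), and Rgs9, Penk and Adora2a were not (-0.26, -0.34 and -0.40, adjusted p = 0.582, 0.608 and 0.508). Ptgds and Col1a2 of the meninges fell by 0.27 and 0.55, and neither was called with spots paired by region markers and UMI (adjusted p = 0.932 and 0.971). Calb1, a calcium buffer of upper layers, had 140 against 181 CPM and 110 against 151 CPM (-0.41, SE 0.07), and was not called with that pairing (-0.24, adjusted p = 0.335). Myelin genes summed to 14570 and 12330 CPM in positive and 14540 and 11440 CPM in zero spots, with Mag alone called of 14. The part of region in these falls was not tested apart from the pairing.

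By size of difference, the 12 largest rises with the same sign in both sections and at least 50 counts were Traf3ip3, Lpxn, Slamf9, Tent5c, Mlph, Pycard, Pyroxd2, Cdca3, Oas1a, Atf3, Cxcl16 and H2-K1, at 1.26 to 1.70. Most rest on few molecules. Lpxn, a leukocyte adhesion adaptor, had 13 and 21 UMI in positive spots (7.50 against 2.46 CPM and 9.66 against 2.82 CPM, difference 1.69, SE 0.36). Pycard, the inflammasome adaptor ASC, had 9.23 against 3.28 CPM and 7.82 against 3.25 CPM (1.38, SE 0.35), and was not called with spots paired by region markers and UMI (adjusted p = 0.448). Better counted outside the lists was Mpeg1, a pore-forming protein of macrophages, at 116 against 55.8 CPM and 134 against 64.7 CPM (1.05, SE 0.09, adjusted p = 5.2e-29). Mpeg1 was chosen for mention after its values were seen.

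The 12 largest falls were Cort, Msln, Ptges3l, Fign, Foxc2, Col6a2, Folh1, Ankrd37, Ankrd63, Myoc, 1700025G04Rik and Unc5d, at -2.45 to -0.71. Cort, the interneuron peptide cortistatin, had 1 and 3 UMI in positive spots against 44 and 52 in zero spots (-2.45, SE 0.58), and 0 in the control spots. Msln, a surface protein of mesothelium, had 3 and 1 UMI against 80 and 33 (-2.39, SE 0.57). Foxc2 and Col6a2, genes of the meningeal mesenchyme, fell by 1.03 and 1.02 on the log2 scale. They were at -0.19 and -0.61 with spots paired by UMI (adjusted p = 0.953 and 0.555), and by region markers and UMI at -0.26 and -0.75 (adjusted p = 0.932 and 0.368).

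Levels were higher where a spot held more Cst7 molecules. In CPM of all UMI, the complement list summed in rNLS8 replicate 1 to 659, 929, 1588 and 3133 in spots with 0, 1, 2 and 3 or more Cst7 UMI, and in rNLS8 replicate 2 to 906, 1254, 1911 and 3339. Control sections were at 258.6 and 302 CPM. The cathepsin list gave 5033, 5381, 7510 and 11040 CPM, then 5331, 5965, 7298 and 9436 CPM, against 5222 and 4682 CPM in control. Zero spots thus lay near the control level for the sum of this list. This does not hold for each member, since Ctsd was lower in control than in the zero spots, as given above. Trem2 stood at 26.5, 43.0, 105 and 308 CPM in rNLS8 replicate 1 and at 32.4, 52.8, 117 and 150 CPM in rNLS8 replicate 2. The top class holds 7 and 31 spots, and for Trem2 only 19 and 41 UMI.

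Other lists followed less evenly or less steeply. The list of disease-associated microglia gave 3958, 4142, 5274 and 5942 CPM in rNLS8 replicate 1. In rNLS8 replicate 2 it gave 3962, 4196, 4464 and 5415 CPM, in both sections a shallower course than complement. Antigen presentation gave 665, 817, 1521 and 1835 CPM and 708, 968, 1401 and 1635 CPM. Interferon response gave 516, 638, 708 and 1055 CPM in rNLS8 replicate 1 and were level from 2 UMI on in rNLS8 replicate 2, at 707, 912, 1385 and 1383 CPM. Reactive astrocyte genes were also level from 2 UMI on, at 1119, 1324, 1803 and 1737 CPM and at 1450, 2024, 2949 and 2930 CPM. Genes of dendrites and the postsynapse were lower with more Cst7, at 7859, 7737, 7367 and 6835 CPM and at 7728, 7385, 7145 and 6689 CPM. These are sums of shares of a spot's RNA, so a list that takes more of the total leaves less for the others, and no test was made.

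**Figure D4:**
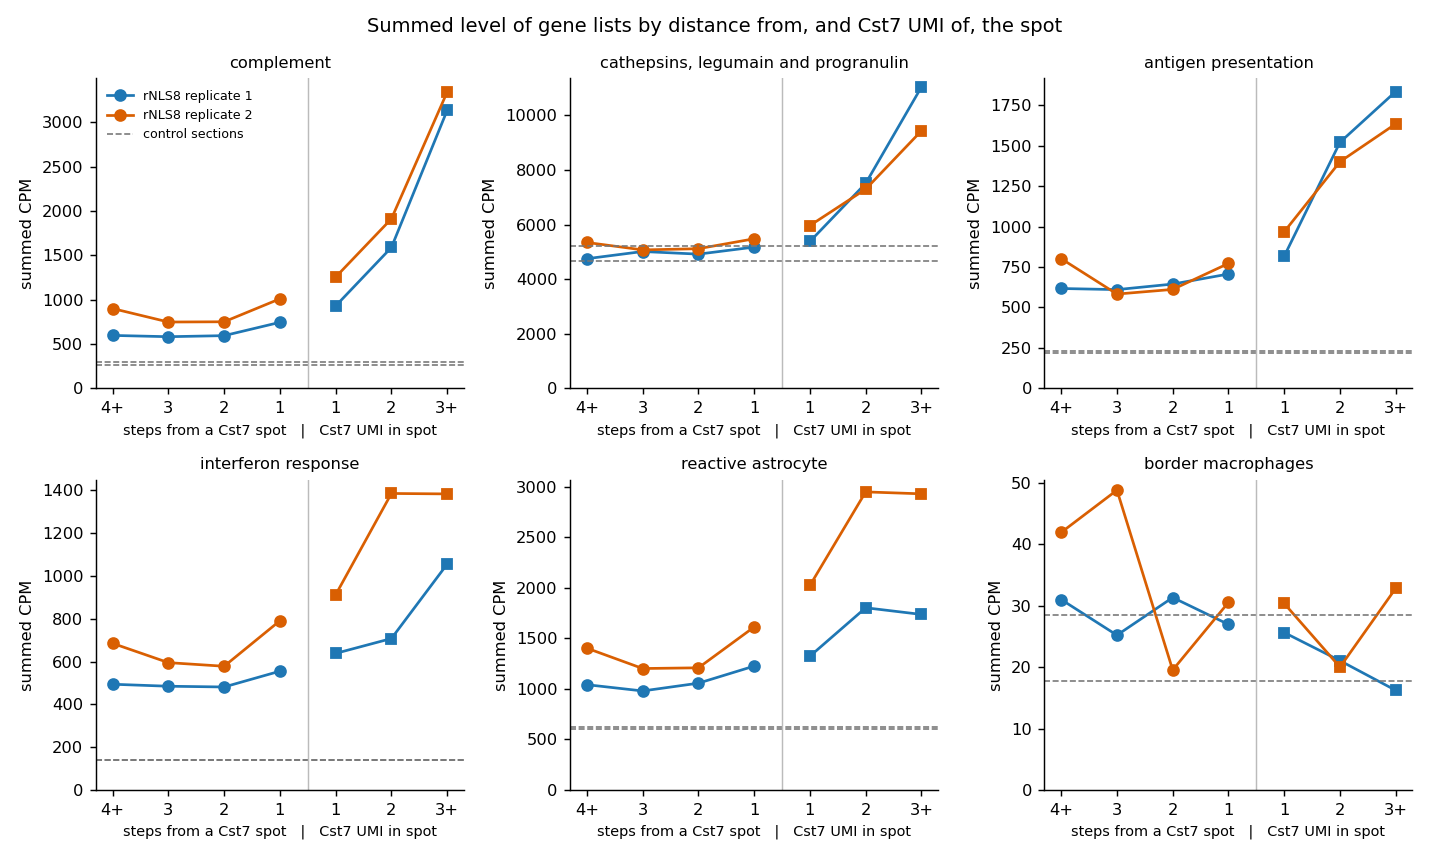
Summed level of 6 gene lists (CPM of all UMI) in Cst7-zero spots at 4 or more, 3, 2 and 1 steps from a Cst7 spot (circles) and in spots with 1, 2 and 3 or more Cst7 UMI (squares), with rNLS8 replicate 1 in blue, rNLS8 replicate 2 in orange and each control section as a dashed line. Complement lies at 582 to 596 CPM beyond 1 step in rNLS8 replicate 1, and in rNLS8 replicate 2 at 750.2 CPM, 748 CPM and 899 CPM at 2, 3 and 4 or more steps against 1009 CPM at 1 step. It reaches 3133 and 3339 CPM at 3 or more UMI, while border macrophage genes stay at or under 48.8 CPM with no common course in the sections.

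Across single spots, the 10 genes that tracked Cst7 most closely included Trem2, Gfap, Mpeg1, B2m, Cd52, Cd68, Ctsd, Tyrobp and C1qb. Their Pearson correlations, averaged over the sections, ran from 0.150 to 0.197 over 1485 and 1293 spots, among 9594 genes. Such values are weak, the spots share library and depth, and they are given as a description.

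Cst7-zero spots next to a positive spot were then set against zero spots 3 or more steps away, 523 against 403 in rNLS8 replicate 1 and 549 against 169 in rNLS8 replicate 2. Neighbouring spots were deeper, with median UMI of 10867 against 6823 and 7749 against 4511. Of 11335 genes, 203 were called (1.79%), 103 higher (0.909%) and 100 lower (0.882%). Complement again rose, in 4 of 8 genes, with C1qa at 350 against 267 CPM and 458 against 355 CPM (0.38, SE 0.06, adjusted p = 1.6e-07). Ctsb, Ctsd, Ctss and Grn rose among 14 genes of the cathepsin list, by 0.17 to 0.42, and Gfap had 594 against 386 CPM and 888 against 573 CPM (0.63, SE 0.05). Trem2 had 34.0 against 19.95 CPM and 36.1 against 31.2 CPM (0.59, SE 0.18, adjusted p = 0.054).

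The list with most rises among neighbours was myelin, with 9 of 14 genes. Mbp, the myelin basic protein, stood at 8926 against 7078 CPM and 6851 against 5225 CPM (0.36, SE 0.03), and Mobp, another myelin protein, rose by 0.41. Pvalb, Sst and Npy of interneurons, Neurod2 of projection neurons, and the activity genes Arc, Bdnf and Nr4a1 also rose, by values from 0.20 for Arc to 0.42 for Npy. Trbc2, a T cell receptor chain, had 31.8 against 18.9 CPM and 43.2 against 31.2 CPM (0.65, SE 0.18), while most other genes of the T and natural killer cell list were too sparse to test. Thbs4, a thrombospondin, had 32.4 against 11.6 CPM and 45.3 against 32.4 CPM (1.07, SE 0.19). The 12 largest rises were Naprt, Fam241a, Ccl6, Nhlh1, Gna15, Thbs4, Cd52, Cxcl10, Prss35, Csf3r, Slc14a1 and Gpt2, at 0.69 to 1.71. Some rest on unequal sections, such as Fam241a at 0.98 and 2.60 and Csf3r at 0.57 and 1.63 in rNLS8 replicates 1 and 2. Of the 24 largest rises and falls, 12 moved by more than the spread between sections in rNLS8 replicate 2 alone and 2 in rNLS8 replicate 1 alone, and 21 were no longer called with spots paired by region markers and UMI.

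Lower beside positive spots were Ankdd1a, Vwf, Cyp26b1, Drd2, Htr2c, Igf2, Six3, Eln, Dlk1, Sytl5, Cdh4 and Doc2b, the 12 largest falls, at -1.55 to -0.77. Drd2, the dopamine receptor of striatal neurons, had 16.8 against 32.9 CPM and 5.09 against 10.4 CPM, and Igf2, a growth factor of the meninges, had 19.6 against 36.7 CPM and 24.0 against 44.0 CPM. Region and depth moved with this comparison. With spots paired by UMI, 62 genes were called (0.611%), and with spots paired by region markers and UMI, 14 (0.14%), among them Gfap, C1qa, Ctsd and B2m (adjusted p = 1.2e-08, 0.042, 0.020 and 0.020). Mbp was then not called (adjusted p = 0.469). DESeq2 called 11 genes (0.097% of all tested), again with no adjusted p for the largest rises and falls. With edgeR and no section block, 0 were called (362 had an unadjusted p under 0.05). The comparison shares its zero spots with the one above, and 74 genes were called with the same sign in both, 29.1% of the 254 and 36.5% of the 203.

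Cxcl10 was captured more often in spots with Cst7 than in spots without it, in both sections and with no test made. A Cxcl10 UMI was present in 22 of 170 positive spots (12.9%) and in 113 of 1315 zero spots (8.59%) of rNLS8 replicate 1, and in 81 of 258 (31.4%) and 168 of 1035 (16.2%) of rNLS8 replicate 2. At such low counts a spot without a UMI may still hold the transcript. The positive spots were also deeper, with a ratio of median UMI of 1.04 in rNLS8 replicate 1 and 1.36 in rNLS8 replicate 2. These shares were not taken at like depth. Spots with Cst7 and without Cxcl10 (148 and 177) were compared with spots that held Cxcl10 and no Cst7 (113 and 168). Their median UMI were 10344.5 against 11849 and 8362 against 8130. Of 9819 genes, 24 were called (0.244%), 18 higher (0.183%) and 6 lower (0.0611%) in the Cst7 spots.

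Trem2 had the highest difference, at 65.0 against 19.1 CPM and 76.9 against 37.0 CPM (1.33, SE 0.19, adjusted p = 0.0067). Aif1 rose by 1.11, Cd68 by 1.10, Pld4, a lysosomal nuclease, by 0.97, Laptm5 by 0.89 and Mpeg1 by 0.80. C1qa had 538 against 343 CPM and 705 against 473 CPM (0.61, SE 0.06, adjusted p = 8.0e-04), with C1qb and C1qc at 0.56 and 0.57. From the cathepsin list, Ctsz, Ctsd, Grn, Ctss and Ctsb rose, by 0.36 to 0.75, and Itgb5, B2m and Gfap by 0.76, 0.44 and 0.36. Pairing by region markers and UMI left Trem2, Aif1, Mpeg1, Ctsz, Ctsd and C1qa called, and Cd68, Pld4, Laptm5, Itgb5 and C1qc not called (adjusted p = 0.098, 0.056, 0.064, 0.312 and 0.059).

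No interferon gene was called among 19 measured, where 0.244% of all genes were, so the count says little about this list. Its median was 0.07, and Bst2 stood at 96.4 against 94.8 CPM and 138 against 121 CPM (0.12, SE 0.11, adjusted p = 0.911). Irf7 had 27.5 against 27.1 CPM and 50.6 against 43.2 CPM (0.15, SE 0.19, adjusted p = 0.942). Such p-values do not show that the spots are alike in these genes. Of the 6 genes that fell, Lrrc10b, Rgs9, Pcp4l1, Ppp1r1b and Pde1b are known from the striatum, and their differences were larger in rNLS8 replicate 1 (-1.42 to -0.63) than in rNLS8 replicate 2 (-0.36 to -0.15). None of these 5 was called with spots paired by region markers and UMI, at -0.45 to -0.15 (adjusted p from 0.0559 to 0.973). Pairing by region markers and UMI left 10 genes (0.112%), 8 of them among the 24. DESeq2 called 0 (32 had an unadjusted p under 0.05), and edgeR without the section as a block called 0 (271 had one). The Cst7 spots here are part of those above, and 23 of the 24 genes are also among the 254.

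**Figure D5:**
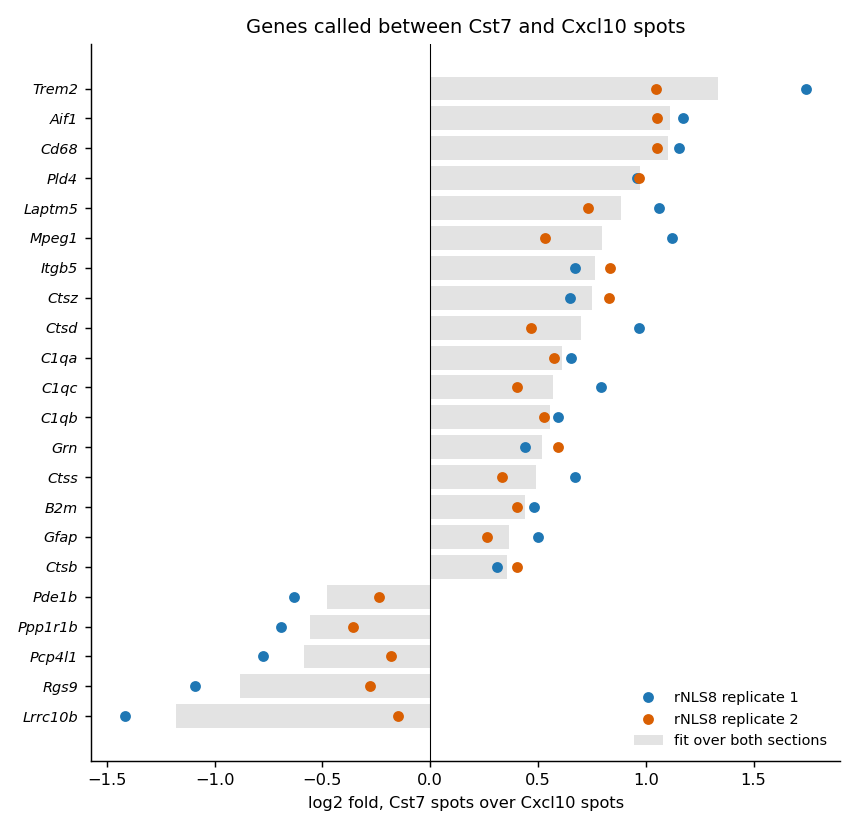
Log2 difference of called genes between spots with Cst7 and no Cxcl10 (148 and 177 spots) and spots with Cxcl10 and no Cst7 (113 and 168 spots), with grey bars for the fit over both sections and a point for rNLS8 replicate 1 (blue) and rNLS8 replicate 2 (orange). Of the 24 called genes 22 are drawn, the 17 higher ones led by Trem2, and the points of the 5 lower genes lie closer to 0 in rNLS8 replicate 2.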

How the data were processed

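Spatial gene expression of brain was measured with Visium on fixed, paraffin-embedded sections. The authors deposited raw UMI counts per gene and spot, made with Space Ranger 2.1.0 per the file headers and on mm10 per the submitters' processing notes. No source used here gives the probe set. The other deposited tables used here hold gene names, spot barcodes and array positions, and the rNLS8 sections share 2095 barcodes because a barcode names an array position. Counts of 11 symbols on more than 1 row were added up.

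Counts were summed per spot set and section, which gives 4 sums per comparison. The quasi-likelihood test of edgeR 4.0.16 under R 4.3.3 was run with the section as a block. Library sizes were scaled by trimmed means, low genes were dropped by filterByExpr, and p-values were adjusted by Benjamini-Hochberg over all genes tested. The block follows from the design, since both sets come from each section. The SE is the absolute log2 difference divided by the root of F. On simulated data with 200 genes changed by 1 on the log2 scale, 72.5%, 76.0% and 77.5% were recovered in the 3 comparisons, with 10, 14 and 4 false calls. The simulated counts had the same dispersion for every gene and no difference in region between the sets. Their change was also larger than the median of 0.582 among the rises in positive spots. They check that the code runs as meant and give no error rate for these data.

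Largest rises and falls are the 12 called genes of each direction with the same sign in both sections and at least 50 counts. Members of the fixed lists may be named besides. Spots were clustered with scanpy 1.11.5 and leidenalg 0.10.2, once without the list genes and once from 100 region markers alone. Pairing took spots within 10% of total UMI. The rule for spots, the gene lists and the tests were chosen with earlier results of these data known. Alternatives were DESeq2 1.42.0, plain library totals, no filter, no block, other UMI and Slc17a7 cuts, thinning to 2000 UMI, pairing by depth or region, and each section alone. Control sections entered no test. Some genes are not reported here.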

Additional observations from a re-analysis of the deposited data

Results flagged for a closer look

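Cst7 was also captured outside the compared spots. In rNLS8 replicate 1, 71 of the 1548 other spots under tissue (4.59%) held 73 Cst7 UMI, and in rNLS8 replicate 2, 188 of 1363 (13.8%) held 241. The corresponding spots of the control sections gave 3 of 2730 (0.110%) and 4 of 2006 (0.199%). These spots have fewer than 2000 UMI or a Slc17a7 share at or below the section median, and they enter no comparison of the report. Without the cut on Slc17a7, 700 genes were called.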

How the results depend on the processing

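Positive against Cst7-zero spots gave 254 called genes. The count moved to 142 with depth-matched spots, 78 with region markers and depth matched, 42 with list-free clusters and depth matched, 105 against zero spots next to a positive spot, 75 in spots with a microglial UMI, 8 after thinning to 2000 UMI (52 and 98 positive spots left), 55 with Slc17a7 above the 75th percentile, 700 with no Slc17a7 cut, 32 with DESeq2 and 0 with no replicate block. It stayed within 1.5 times under the other 6 alternatives, from 228 to 336. Neighbours against distant spots gave 203, and 62, 14 and 3 under the first 3 pairings, 11 with DESeq2 and 0 with no replicate block. Cst7 against Cxcl10 spots gave 24, and 10 with region markers and depth matched, 12 with list-free clusters and depth matched, 59 with no filter, 0 with DESeq2 and 0 with no replicate block. The pairing by region markers, and the pairing by list-free clusters in the latter comparisons, were chosen after seeing the data. The cause of these moves was not tested, and pairing and thinning also leave fewer spots or molecules. The genes that rose in positive over Cst7-zero spots had a median difference of 0.582. It was 0.581 with depth-matched spots, 0.552 with region markers and depth matched and 0.368 with list-free clusters and depth matched.

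Of the 254 genes, all 248 tested with depth-matched spots and all 249 with region markers and depth matched kept their sign, as did 241 of 249 with list-free clusters. After thinning 222 of 244 did. Among the 99 genes followed one by one, signs turned for Atf3 (-0.39) and Rtp4 (-0.060) after thinning, Socs3 (-0.20) above the 75th percentile, Lhfpl3 (0.17), Col1a2 (0.071) and Ptgds (0.043) with list-free clusters, and Stx1a (0.00018) with no Slc17a7 cut. Each section alone gives values without a test, and 254 and 252 genes kept their sign in rNLS8 replicates 1 and 2.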
